A study of Mus musculus with 41 samples.

Results

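The comparison asked whether transcript levels moved differently over 8 h of α-amanitin in Caprin1 knockout (KO) cells than in wild-type (WT) cells. It used 15 of the 41 samples of the series, those harvested at 0 h and at 8 h, and its measure was the difference between the change in KO cells and the change in WT cells. WT cells were of the R1 mouse embryonic stem cell (ESC) line, and KO cells came from clones 2 and 4. Every group had first spent 4 days in ESC medium with 1 µM retinoic acid (RA) and without LIF, the cytokine that holds ESCs in their undifferentiated state. Cells harvested at 8 h were then given 2 µg/ml α-amanitin for that time, and 0 h was the untreated start. WT cells had 4 libraries at each time, clone 2 had 2 at each time, and clone 4 had 1 library at 0 h and 2 at 8 h. Each KO line is a clone, so what differs between 2 clones and a WT line cannot be told apart from what the knockout changed. The labels do not say whether replicates came from separate cultures, and p-values then measure only the spread between these libraries.

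α-Amanitin binds RNA polymerase II and stops it from moving along its template, so that with time a cell holds mostly RNA made before the drug. Under such a block a short-lived RNA loses its share of the pool and a long-lived one gains. Levels given here are shares of a library, as CPM (counts scaled to a common library total, with TMM factors unless stated). A rise therefore means a larger share, and whether RNA was still made after the drug was given was not tested. The marker levels and sums given with the library totals below, and the summed levels of gene lists, are CPM without TMM factors. These factors were 0.9214 to 0.9536 in clone 2, 0.9813 to 0.9861 in clone 4 and 1.022 to 1.061 in WT libraries. The protein CAPRIN1 binds mRNA in the cytoplasm, joins G3BP1 and G3BP2 in stress granules, and takes part in mRNA transport and translation. RA acts through nuclear receptors of the RAR and RXR families, which sit on DNA at paired short repeats and switch on genes for RA breakdown, RA uptake and body patterning.

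A gene was called when the difference in change, averaged over the 2 clones, had a false discovery rate (FDR) under 0.05 by edgeR's quasi-likelihood test with Benjamini-Hochberg adjustment, and when it had the same sign in both clones. Of 15730 genes tested, 181 were called higher in KO cells (1.15%) and 164 lower (1.04%), together 345 (2.19%). The leading genes that fell less, or rose more, in KO cells were the retinaldehyde reductase gene Dhrs3, the iodide transporter gene Slc5a5, the Wnt ligand genes Wnt6 and Wnt4, the kinase gene Tec and the keratin gene Krt19. Other genes rose in WT cells and rose less, fell or had no called change in KO cells. Among these were the matrix glycoprotein gene Thbs1, the matrix protease gene Adamts5, the prostaglandin synthase gene Ptgs2 and the mesenchymal homeobox gene Prrx1. Changes within a line were called at the same FDR, for 46.6% of genes in WT cells, 23% in clone 2 and 13.9% in clone 4, and "rose" or "fell" is used only of these. Of the RA-response genes, 6 of 25 were called and all 6 were higher.

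A pair of the called RA-response genes, Rarb and Cyp26a1, carry a near-identical repeat just upstream of a RefSeq start, and it is shown because it is the kind of element RA receptors bind. Rarb encodes a retinoic acid receptor and Cyp26a1 an enzyme that breaks RA down. The sequences are from RefSeq (GRCm38.p6), on the strand of the gene, and capitals mark the letters that match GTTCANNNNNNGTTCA on either strand. Rarb is shown at chr14:16575477-16575726 (minus strand), which ends at the base before the start site. Cyp26a1 is shown at chr19:37697769-37697798 (plus strand).
Rarb: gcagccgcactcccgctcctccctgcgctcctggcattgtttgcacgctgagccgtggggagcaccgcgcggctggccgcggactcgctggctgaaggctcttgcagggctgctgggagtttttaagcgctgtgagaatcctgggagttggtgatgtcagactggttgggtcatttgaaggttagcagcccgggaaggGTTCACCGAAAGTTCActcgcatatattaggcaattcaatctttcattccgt
Cyp26a1: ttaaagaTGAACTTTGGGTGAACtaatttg
The Rarb element runs from 52 to 37 bases before the start, and that of Cyp26a1 from 32 to 17 bases before it. Each start is that of the promoter table, and the RefSeq gene spans, from which gene positions are given here, begin farther upstream, so both elements lie inside the spans of their genes. Read on the opposite strand, the Cyp26a1 element is identical to that of Rarb at 15 of 16 letters, with the difference G8C (Rarb first, counted from the 5′ end of the element). Of the 8 called RA-response and Hox genes, 6 had a promoter window in the table and 2 of these held the motif. It was in 25 of all 32851 windows (0.0761%), a count of windows and not of genes. Members of the same lists that were not called were not counted, so these shares say nothing about what sets called genes apart. A match is a description of the letters and not evidence of a bound site.

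The targeted gene was read first. Caprin1 (chr2:103762945-103797669) stood at 888, 796, 986 and 1012 CPM in the 4 WT libraries at 0 h and at 1176, 1128, 1148 and 1134 CPM at 8 h. Clone 2 held 110 and 109 CPM at 0 h and 130 and 127 CPM at 8 h, below every WT library. Clone 4 held 1103 CPM at 0 h and 1037 and 1087 CPM at 8 h, above the WT libraries of its time at 0 h and below them at 8 h. The transcript therefore checks the label of clone 2, and for clone 4 it shows no loss of RNA, which does not tell whether protein was made. The difference in change of Caprin1 itself was -0.23 (log2, SE 0.0986, edgeR FDR 0.208).

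Total counts ran from 3.95 to 31.6 mega-counts per library at 0 h and from 7.24 to 10.6 mega-counts at 8 h. The WT libraries at 0 h stood in pairs: the SD of gene-wise log2 differences was 0.224 between replicates 1 and 2 and 0.128 between 3 and 4, but 0.320 to 0.354 across the pairs, whereas all WT pairs at 8 h gave 0.161 to 0.177. With WT replicates 3 and 4 alone, 251 genes were called higher and 420 lower, and with replicates 1 and 2 alone 2404 and 2730. All 10 ESC markers were at 1 CPM or more in every group. Summed markers of primitive and parietal endoderm were at 41641 to 46627 CPM in clone 2, 15830 to 18370 in clone 4 and 11369 to 13511 in WT libraries. Summed fibroblast feeder markers were at 2823 to 3465 CPM in clone 4, 1462 to 1529 in clone 2 and 1176 to 1754 in WT. Of these markers, Lum was under 1 CPM in every group of 0 h and 8 h and S100a4 in WT, while Col1a1 had group means of 273 to 1471 CPM. Pdgfra made up a large part of the sum in clone 2, at 639 CPM at 0 h and 863 CPM at 8 h. In WT it was at 210 and 200 CPM, and in clone 4 at 362 and 282 CPM. Trophoblast markers summed to 500 to 730 CPM in the clones and 793 to 1061 in WT, and mesoderm markers to 32.2 to 43.5 and 26.1 to 45.9. Neuroectoderm markers summed to 62.4 to 64.5 CPM in clone 2, 272 to 362 in clone 4 and 259 to 369 in WT, with Neurog2 and Olig2 under 1 CPM throughout. The part these levels play in the differences given here was not tested. In bulk libraries, fewer cells of a type and less RNA per cell cannot be told apart.

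Dhrs3, which encodes an enzyme that turns retinaldehyde back to retinol and is itself switched on by RA, showed the largest difference among genes at 5 CPM or more. It lies at chr4:144892534-144928209. WT libraries held 130, 114, 112 and 110 CPM at 0 h and 4.18, 3.57, 3.91 and 4.21 CPM at 8 h. Clone 2 held 64.6 and 48.8 CPM at 0 h and 21 and 16.5 CPM at 8 h. Clone 4 held 115 CPM at 0 h and 10.4 and 12.1 CPM at 8 h. All KO libraries were thus above all WT libraries at 8 h, while at 0 h clone 4 was within the WT range and clone 2 below it. On the log2 scale the gene fell by 4.86 in WT cells, by 1.61 in clone 2 and by 3.35 in clone 4, each called. The mean difference in change was 2.38 (SE 0.18, edgeR FDR 3.5e-07).

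Slc5a5, the sodium-iodide symporter, rose in clone 2 from 2.35 and 1.61 CPM to 18.7 and 16.7 CPM. Clone 4 went from 1.72 CPM to 3.15 and 3.07 CPM. WT libraries held 11.5, 9.93, 8.37 and 7.05 CPM at 0 h and 7.96, 6.12, 6.69 and 6.75 CPM at 8 h. At 0 h every KO library was below every WT library, and at 8 h clone 2 was above and clone 4 below WT. The mean difference in change was 2.36 (log2, SE 0.253, edgeR FDR 5.28e-05). Clone 2 alone gave 3.49 and clone 4 alone 1.23.

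The Wnt ligand genes differed in how their WT level moved. Wnt6 held 34.9, 30.4, 22.6 and 16.7 CPM in WT at 0 h and 18.3, 15.8, 22.8 and 16.2 CPM at 8 h, so the WT times overlapped. It held 7.39 and 8.63 CPM in clone 2 and 6.77 CPM in clone 4 at 0 h, and 16.4 and 14.1 CPM and 13.9 and 14.4 CPM at 8 h. Every KO library was below every WT library at 0 h, and at 8 h 1 KO library lay within the WT range and the other 3 just below it. Its mean difference was 1.47 (log2, SE 0.289, edgeR FDR 0.0165).
Wnt4 held 15.4, 12.3, 11.3 and 10.1 CPM in WT at 0 h and 13.9, 15.2, 13.8 and 16.7 CPM at 8 h. Clone 2 went from 3.63 and 4.01 CPM to 25.1 and 20 CPM, and clone 4 from 13.1 CPM to 27.2 and 23.8 CPM. Both clones ended above all WT libraries, although clone 4 began within the WT range. Its mean difference was 1.43 (log2, SE 0.178, edgeR FDR 0.000273). Clone 2 contributed more of it, with 2.23, than clone 4, with 0.62.

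Tec, a cytoplasmic tyrosine kinase, fell in WT cells from 27.9, 29.3, 30 and 27.9 CPM to 12.4, 10.1, 9.34 and 10.5 CPM. Clone 2 rose from 7.93 and 5.9 CPM to 10.2 and 11.5 CPM, and clone 4 fell from 19.3 CPM to 11.6 and 10.9 CPM. All groups thus overlapped at 8 h after standing apart at 0 h. The mean difference was 1.38 (log2, SE 0.16, edgeR FDR 0.00012), with 2.08 in clone 2 and 0.68 in clone 4.
Krt19, a keratin of simple epithelia, fell in WT cells from 205, 195, 157 and 142 CPM to 119, 110, 131 and 119 CPM. It rose in clone 2 from 47.8 and 45.3 CPM to 86.4 and 76.7 CPM and in clone 4 from 54.2 CPM to 89.4 and 97.6 CPM. KO libraries lay below WT libraries at both times, with a smaller gap at 8 h. The mean difference was 1.34 (log2, SE 0.148, edgeR FDR 0.000118). The clones gave 1.35 (clone 2) and 1.33 (clone 4).

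**Figure D1:**
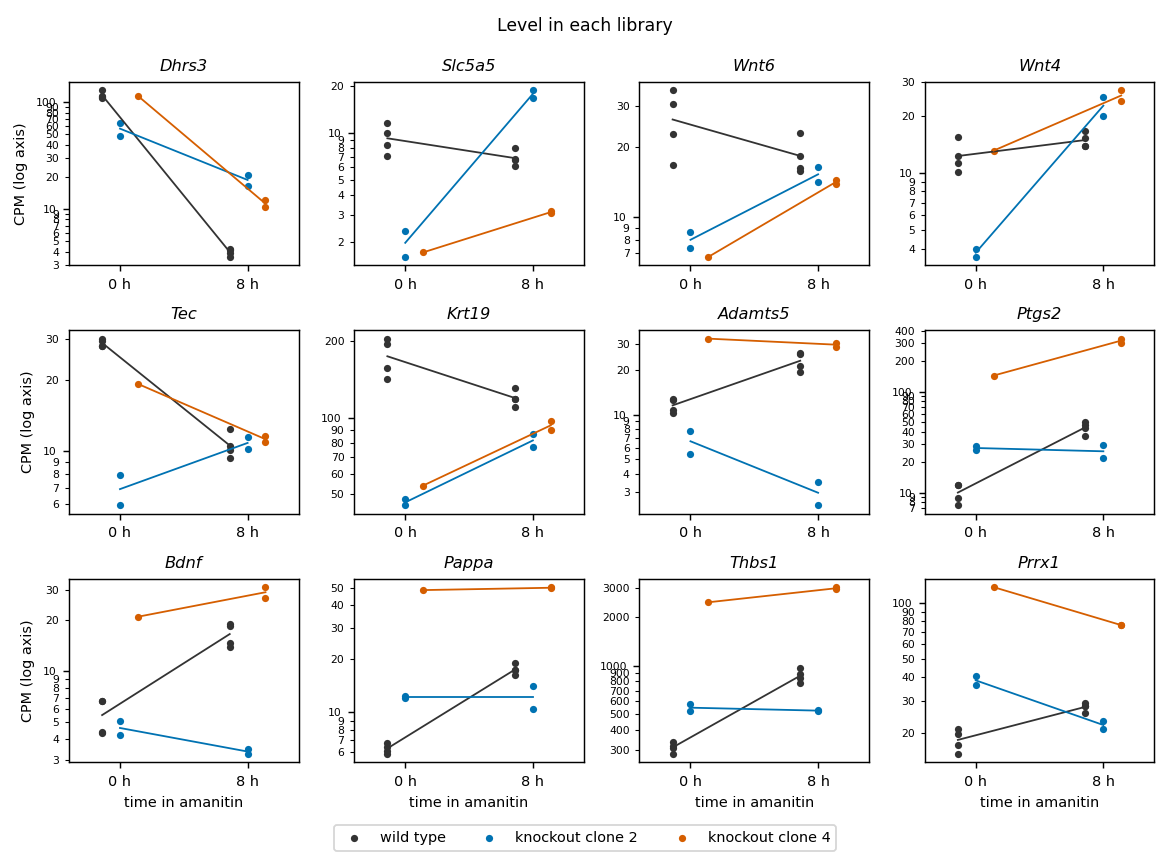
Level of the 6 genes with the largest positive and the 6 with the largest negative difference in change, in CPM on a log axis, at 0 h and 8 h of α-amanitin. Points are libraries and lines join group means; the 8 h KO points of Dhrs3 all lie above the WT points, and WT lines of Thbs1 and Pappa rise while the KO lines stay nearly level.

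The next 6 genes higher in KO cells were Slc45a3 (1.22), Hoxc5 (1.17), Dlgap3 (1.15), Bst2 (1.12), Etnk2 (1.10) and Rtn4rl1 (1.09), with mean differences in change on the log2 scale and edgeR FDRs from 0.00493 to 0.0466. Bst2, the interferon-induced membrane protein tetherin, fell by 0.91 in WT cells and gave 0.21 and 0.22 in the clones, which did not pass the test. Slc45a3 gave -0.13 in WT cells, which did not pass, and rose by 1.13 in clone 2 and 1.04 in clone 4. Etnk2, an ethanolamine kinase gene, fell by 1.20 in WT cells, and its changes of -0.52 and 0.32 in the clones did not pass.

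Among the genes lower in KO cells at 5 CPM or more, Adamts5 showed the largest difference. This gene, for a protease that cuts the proteoglycan aggrecan, rose in WT cells from 12.5, 10.3, 12.7 and 10.7 CPM to 21.3, 25.7, 19.4 and 25.9 CPM. Clone 2 fell from 5.44 and 7.8 CPM to 3.51 and 2.45 CPM. Clone 4 went from 32.5 CPM to 28.7 and 30.5 CPM. Clone 2 lay below WT and clone 4 above WT at both times, so the clones shared the direction of the difference and not the level. The mean difference was -1.65 (log2, SE 0.201, edgeR FDR 0.000201).

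Ptgs2 encodes cyclooxygenase-2, and its mRNA is a textbook case of rapid decay through AU-rich elements. WT libraries rose from 8.79, 7.48, 11.9 and 11.9 CPM to 44.1, 46.9, 36.1 and 50.5 CPM. Clone 2 held 26.5 and 28.8 CPM at 0 h and 21.9 and 29.4 CPM at 8 h, and clone 4 rose from 144 CPM to 305 and 334 CPM. Every KO library was above every WT library at 0 h, whereas at 8 h clone 2 was below WT and clone 4 above. The mean difference was -1.61 (log2, SE 0.199, edgeR FDR 0.000559).

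Bdnf, a neurotrophin gene, rose in WT cells from 4.4, 4.34, 6.7 and 6.65 CPM to 14.8, 19, 14 and 18.6 CPM. Clone 2 held 4.2 and 5.07 CPM and then 3.26 and 3.47 CPM, and clone 4 held 21 CPM and then 31.4 and 27.2 CPM. Neither clone's change passed the test, and the mean difference was -1.53 (log2, SE 0.225, edgeR FDR 0.00149).
Pappa, which encodes a protease that frees insulin-like growth factors, rose in WT cells from 6.11, 6.41, 6.74 and 5.85 CPM to 17.3, 16.2, 17.3 and 18.9 CPM. Clone 2 held 12.1 and 12.4 CPM and then 10.5 and 14 CPM, and clone 4 held 48.7 CPM and then 49.8 and 50.6 CPM. KO libraries were above WT at 0 h, and at 8 h clone 2 was below WT. The mean difference was -1.43 (log2, SE 0.139, edgeR FDR 1.79e-05).

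Thbs1, thrombospondin 1, is a secreted matrix protein and was the most abundant of the 24 leading genes, at a mean of 1022 CPM. It lies at chr2:118111876-118127133. WT libraries rose from 335, 319, 307 and 284 CPM to 841, 882, 779 and 959 CPM. Clone 2 held 522 and 575 CPM at 0 h and 523 and 529 CPM at 8 h. Clone 4 held 2463 CPM at 0 h and 2959 and 3056 CPM at 8 h. KO libraries were thus all above WT at 0 h, and only clone 4 was at 8 h. The mean difference was -1.36 (log2, SE 0.1, edgeR FDR 3.5e-07).

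Prrx1, a homeobox gene of limb and mesenchymal cells, rose in WT cells from 17.3, 15.5, 21 and 19.9 CPM to 28.2, 29.2, 28 and 25.6 CPM. It fell in clone 2 from 36.4 and 40.6 CPM to 23.2 and 21.1 CPM and in clone 4 from 122 CPM to 76.5 and 76 CPM. This is a change in opposite directions, called in each of the 3 lines, and the mean difference was -1.32 (log2, SE 0.133, edgeR FDR 2.56e-05). The other 6 of the 12 lowest were Emp1 (-1.32), Cdh11 (-1.32), Ankrd1 (-1.31), Lurap1l (-1.31), Npr3 (-1.26) and Id4 (-1.25), with edgeR FDRs from 3.5e-07 to 0.00383. Emp1, an epithelial membrane protein gene, rose in WT cells by 1.65 and in clone 4 by 0.57, while the 0.10 of clone 2 did not pass. Cdh11, cadherin 11 of mesenchymal cells, rose by 1.08 in WT cells and fell by 0.35 in clone 2. Npr3, a natriuretic peptide clearance receptor gene, gave 0.25 in WT cells, which did not pass, and fell by 0.81 and 1.21 in the clones. Id4, an inhibitor of bHLH factors, rose by 1.84 in WT cells and by 0.82 in clone 4.

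Across the 181 genes called higher, the difference in change ran from 0.32 to 2.74 on the log2 scale, with a median of 0.65 (0.68 in clone 2 and 0.63 in clone 4). The median change was -0.58 in WT cells, 0.10 in clone 2 and 0.09 in clone 4. Across the 164 called lower it ran from -2.07 to -0.29, with a median of -0.70 (-0.92 in clone 2 and -0.51 in clone 4). The median change of these was 0.60 in WT cells, -0.27 in clone 2 and 0.05 in clone 4. Over all genes tested the median difference was 0.01. Because both clones are set against the same WT libraries, equal signs in the clones are not independent. The median level was 32.4 CPM for higher and 41.8 CPM for lower genes, against 20 CPM over all genes. At the threshold, Impdh1 (0.46, FDR 0.0493) and Rmdn2 (-0.64, FDR 0.0496) lay just inside, and Mecom (0.43, FDR 0.05) and Bcl3 (0.88, FDR 0.0503) just outside.

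**Figure D2:**
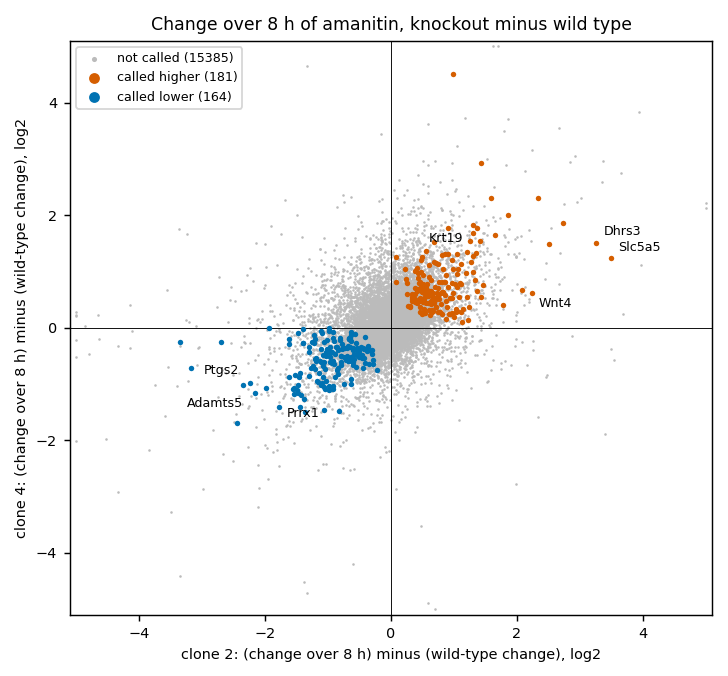
Difference in change over 8 h from WT cells (log2) in clone 2, on the horizontal axis, and in clone 4, on the vertical axis, for 15730 genes; 11 genes beyond 5 on either axis are drawn at the edge. The 181 genes called higher lie in the upper right and the 164 called lower in the lower left, by the rule of the call, and both axes share the WT libraries.

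Of the 25 RA-response genes tested, 6 were called higher and 0 lower, against 1.15% and 1.04% of all genes. Beside Dhrs3 these were Rarb (1.00), Rec8 (0.75), Stra6 (0.61), Cyp26a1 (0.54) and Tshz1 (0.51), as mean log2 differences in change. The last 2 are outside the rule for named genes and were added after their values were seen, the first because of its promoter. All 6 fell in WT cells and in both clones, and fell less in each clone. Rarb went from 23.9 to 31.3 CPM in WT cells to 2.4 to 3.69 CPM. In clone 2 it went from 11.1 to 11.5 CPM to 2.14 to 2.9 CPM, and in clone 4 from 22.3 CPM to 3.8 to 5.56 CPM. Rec8, a meiotic cohesin gene induced by RA, went from 231 to 316 CPM to 33 to 36.8 CPM in WT cells, and every KO library was below the WT libraries of its time. Stra6, the receptor for retinol-binding protein, fell by 1.29 in WT cells, 0.33 in clone 2 and 1.04 in clone 4. Cyp26a1 (chr19:37697738-37701536) changed by -2.54 in WT cells, -1.83 in clone 2 and -2.18 in clone 4. The median difference over the 25 genes was 0.26, against 0.01 over all genes, with 15 higher and 4 lower in both clones, where over all 15730 genes 5541 were higher and 5165 lower in both (68.1% with the same sign, the clones being set against the same WT libraries).

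The level at the start also differed between the lines. The 25 genes summed to 3187 to 3484 CPM in WT at 0 h, 1649 to 1863 CPM in clone 2 and 2363 CPM in clone 4. At 8 h they summed to 1218 to 1272, 735 to 745 and 1035 to 1047 CPM. Both clones were below WT at each time, and the gap was smaller at 8 h. The endoderm marker sums given above ran highest in clone 2, and their part in the RA-response genes was not tested. Without clone 2 replicate 2 at 0 h, clone 2 replicate 1 at 8 h or WT replicate 1 or 3 at 8 h, 3 genes were called higher in each case, and without WT replicate 4 at 0 h 1 gene was called lower.

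Hox genes, the RA-induced regulators of axial position, had a median difference of 0.29 over 26 tested, against 0.01 over all genes. Of these, 2 were called higher (7.69%) and 0 lower, against 1.15% and 1.04% of all genes. The called genes were Hoxc5 (1.17, edgeR FDR 0.00493) and Hoxa5 (0.80, edgeR FDR 0.0252). Hoxc5 fell in WT cells from 26.7 to 35.7 CPM to 4.98 to 5.86 CPM. It went from 4.57 to 5.37 CPM to 1.93 to 1.94 CPM in clone 2, and from 15.3 CPM to 6.38 to 7.71 CPM in clone 4. At 0 h both clones were below WT, and at 8 h clone 4 was above. Of the Hox genes, 1 was called without clone 2 replicate 2 at 0 h, clone 2 replicate 1, clone 4 replicate 2 or WT replicate 1, 2 or 4 at 8 h, and 4 or 5 were called without WT replicate 3 or 4 at 0 h. Hox genes overlap their neighbours and antisense RNAs, and how the authors' counting treated strand is not given in the sources used here.

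Genes of cholesterol synthesis moved the other way over time. Their products turn acetyl-CoA into cholesterol, and the factor SREBF2 raises them when sterols are low. Of 24 tested, 5 were called higher in KO cells (20.8%) and 0 lower, against 1.15% and 1.04% of all genes. Among the 5 were Mvd (0.63), Srebf2 (0.48), Dhcr7 (0.47) and Fdft1 (0.37), the last added after its values were seen. All 5 rose in both clones. Mvd, the mevalonate diphosphate decarboxylase gene, rose by 0.30 in WT cells, 1.19 in clone 2 and 0.67 in clone 4 (difference 0.63, SE 0.163, edgeR FDR 0.0483). Mvd stood at 14.9 to 20.5 CPM in WT, 10.2 to 10.6 CPM in clone 2 and 14.3 CPM in clone 4 at 0 h. At 8 h it stood at 18.9 to 22.9, 21.8 to 25.7 and 20.2 to 25.3 CPM, so that the KO libraries were all below WT at 0 h and overlapped WT at 8 h. Srebf2 gave 0.09 in WT cells, which did not pass, and rose by 0.61 and 0.54 in the clones. In CPM without TMM factors, the 24 genes summed at 0 h to 1300 to 1373 in WT, 1291 to 1303 in clone 2 and 1287 in clone 4. At 8 h these sums were 1888 to 2099, 2097 to 2123 and 2138 to 2210 CPM. The factors were lower in both clones than in WT, so the order of the lines in these sums can depend on the scale. The list median was 0.12, against 0.01 over all genes. Leaving out any KO library with a replicate or any WT library of 8 h gave 1 call, leaving out WT replicate 1 at 0 h gave 2, and so did scaling by RLE in place of TMM. Leaving out WT replicate 2, 3 or 4 at 0 h gave 4, 5 and 5. The motif TCACNCCAC, a form of the sterol regulatory element, was in 0 of the 3 of these genes with a promoter window and in 408 of all 32851 windows (1.24%, both strands).

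**Figure D3:**
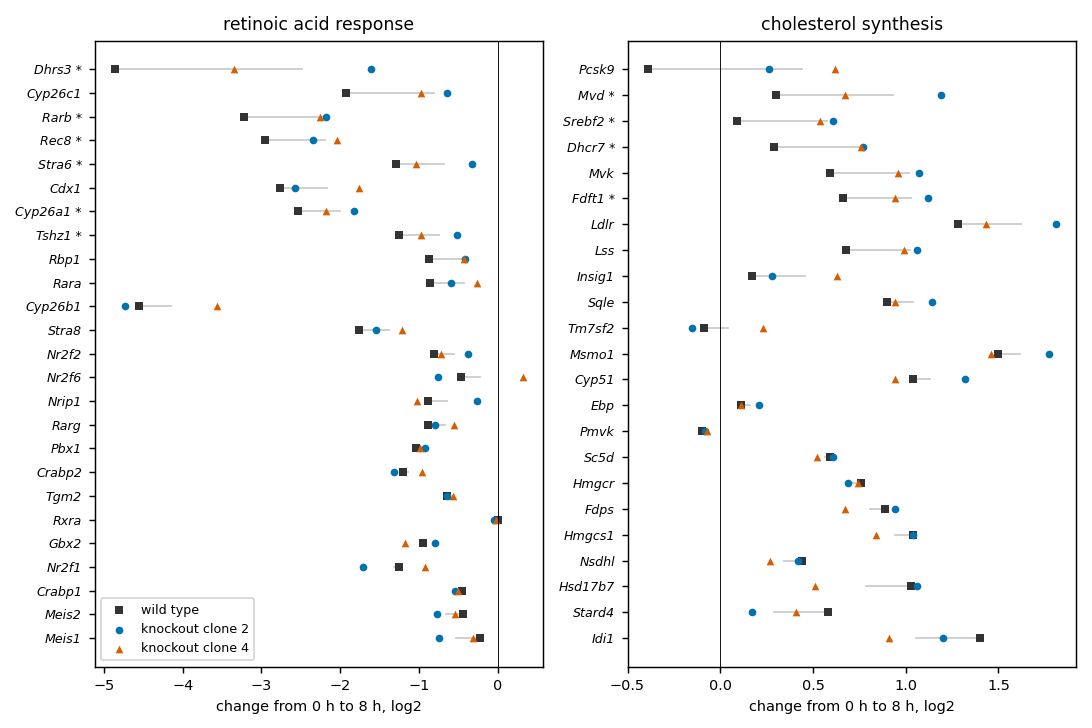
Change from 0 h to 8 h (log2) of RA-response genes (left) and cholesterol synthesis genes (right) in WT cells and in each clone, sorted by the mean difference in change; grey lines run from WT to the mean of the clones and asterisks mark called genes; 1 called cholesterol gene is not drawn. The called RA-response genes lie left of 0 in all 3 lines with WT farthest left, and the called cholesterol genes lie right of 0 with WT nearest to it.

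Of 19 fibroblast feeder genes tested, 3 were called lower and 0 higher: Prrx1, Dcn (-1.02, edgeR FDR 0.00403) and Col3a1 (-0.71, edgeR FDR 0.0111). Dcn, the matrix proteoglycan decorin, rose by 0.81 in WT cells, from 5.29 to 5.8 CPM to 9.05 to 11.3 CPM, and its changes of -0.18 and -0.24 in the clones did not pass. Col3a1, a fibrillar collagen, gave 0.16 in WT cells, which did not pass, fell by 1.05 in clone 2 and gave -0.04 in clone 4. The list median was 0.01, with 6 members higher and 8 lower in both clones. The summed level of this list, which is longer than the marker set above, was 1734 to 2507 CPM in WT at 0 h and 1686 to 1809 CPM at 8 h. In clone 2 it was 1475 to 1520 and 1094 to 1125 CPM, and in clone 4 it was 5281 and 4644 to 5003 CPM, above WT at both times. The part of fibroblast RNA in the lower genes was not tested. Of 23 smooth muscle and actin genes, 2 were called lower, Lmod1 (-0.82) and Cnn1 (-0.57), and 0 higher. Over all genes, beside this list and the fibroblast list, 1.04% were called lower and 1.15% higher. Clone 2 alone gave -1.31 for Lmod1 and -0.77 for Cnn1, and clone 4 alone -0.34 and -0.36. The median of the smooth muscle and actin list was -0.36 in clone 2 and 0.02 in clone 4.

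The 2-cell-like genes, which mark a rare ESC state like the early embryo, had the list median farthest below 0, at -0.63, with 13 of 14 lower in both clones, against 5165 of 15730 genes in all. Only Zscan4c was called (-1.07, SE 0.235, edgeR FDR 0.0237). It stood at 1.95 to 3.58 CPM in WT at 0 h and 6.07 to 7.9 CPM at 8 h. Clone 2 held 9.13 to 10 CPM and then 6.65 to 10.6 CPM, and clone 4 held 6.77 CPM and then 6.74 to 7.71 CPM. The clones were above WT at 0 h and overlapped it at 8 h. Zscan4 and Usp17l genes are near-identical copies, so their counts are not independent and their split between copies is uncertain.

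Of 30 pluripotency genes, 1 was called higher, the TGF-β family ligand Nodal (0.72, edgeR FDR 0.0251), and 1 lower, the let-7 regulator Lin28a (-0.52, edgeR FDR 0.00283). Lin28a held 164 to 189 CPM in WT at 0 h and 165 to 177 CPM at 8 h, and fell in clone 2 from 211 to 212 CPM to 117 to 119 CPM. In clone 4 the change of -0.26 did not pass. Interferon-stimulated genes had 1 call in 35 (Bst2), a median difference of 0.29, and 20 members higher against 4 lower in both clones, against 5541 and 5165 over all 15730 genes. With 1.15% of all genes called higher, nothing is read from 1 call in a list of this size. Single calls, read in the same way, came from 27 p53 targets and 30 integrated stress response genes (the growth brake Sesn2, 0.43, on both lists), from 30 endoderm genes (Krt19), from 12 mesoderm genes (the PDGF receptor gene Pdgfrb, 0.57) and from 13 trophoblast genes (Gata2, 0.65), all higher. Among immediate early genes Klf6 (-0.57) was called lower of 34, and among RNA polymerase II and P-TEFb genes the 7SK-binding gene Larp7 (-0.35) of 30. Of 33 cell cycle genes, the phosphatase gene Cdc25b (0.60) was called higher and the inhibitor gene Cdkn1b (-0.40) lower. Numbered zinc finger genes had 3 higher and 1 lower of 348, with a median of -0.13.

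No member was called by edgeR in several lists that bear on RNA handling. Among 64 RNA decay factors (median -0.02) 8 had an unadjusted p under 0.05, among 33 CAPRIN1 partners and stress granule genes (median -0.10) 12, and DESeq2 called 0 in both. Among 82 cytosolic ribosomal protein genes (median 0.12) 18 had such a p and DESeq2 called 2 higher. Among 29 splicing regulators (median -0.14) 12 had such a p and DESeq2 called 2 lower. Further lists with 0 calls in edgeR were chaperones (7 of 25 with such a p, median -0.05), hypoxia and glycolysis (7 of 25, median 0.13), imprinted genes (6 of 30, median -0.02) and neuroectoderm (5 of 23, median 0.01), in which DESeq2 called 1 higher in hypoxia and glycolysis and 0 in the rest. Of the replication-dependent histones 1 gene was tested, with a difference of -0.48 that passed neither test nor an unadjusted p of 0.05. Over all genes 3230 of 15730 had an unadjusted p under 0.05. Cnot1, the scaffold of the deadenylase complex, gave -0.03 (edgeR FDR 0.832), and Pabpc1, the poly(A)-binding protein gene, gave -0.06 (edgeR FDR 0.721). The 7 mitochondrially encoded genes, which α-amanitin's target does not transcribe, had a median of -0.41 with all 7 lower in both clones and 0 called by edgeR, by DESeq2 or at an unadjusted p under 0.05. Their sum ranged from 3452 to 7616 CPM among the WT libraries at 0 h and from 7243 to 11507 CPM between the libraries of clone 4 at 8 h, so the spread within groups was wide.

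The authors' deposited tables of CAPRIN1 immunoprecipitation name genes and give no values. Of 2108 tested genes on their list of control against RA, 34 (1.61%) were called higher and 36 (1.71%) lower. Of 2406 on their list of 2I against RA, 41 (1.70%) were higher and 28 (1.16%) lower. Of the 12520 genes on neither list, 131 (1.05%) were higher and 122 (0.974%) lower. Genes on the lists were also more abundant, with a median of 112 and 95.1 CPM against 12.6 CPM for genes on neither, and shares called were not compared at matched level.

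The clones were also tested apart. In clone 2 alone 612 genes were called (3.89%), 274 higher (1.74%) and 338 lower (2.15%). In clone 4 alone, with 1 library at 0 h, 62 were called (0.394%), 36 higher (0.229%) and 26 lower (0.165%). Called in each clone by itself with the same sign were 3 higher (0.0191%) and 17 lower (0.108%) genes. The change over 8 h differed between the clones for 230 genes (1.46%), with 147 (0.935%) higher and 83 (0.528%) lower in clone 4, and 34 of the 345 called genes were among them. Dhrs3 and Slc5a5 were among these 34, with clone 4 minus clone 2 at -1.75 (SE 0.22, edgeR FDR 0.000659) and -2.26 (SE 0.421, edgeR FDR 0.012). In both clones they had the same sign, and in clone 2 the size was larger. A further 3 genes had an FDR under 0.05 for the mean with opposite signs in the clones, Robo1, Gucy1a2 and Fgfr3, and were not called. They were named after their values were seen. The clone 2 count of 612 was 193 to 233 without any 1 of its own libraries, 385 to 396 without WT replicate 1, 2 or 3 at 8 h, and 987 or 1009 without WT replicate 3 or 4 at 0 h. The clone 4 count of 62 was 6 to 34 without any 1 of the KO libraries that had a replicate or of the WT libraries of 8 h, and 140, 152 and 595 without WT replicate 2, 3 and 4 at 0 h. The 230 genes that differed between clones became 38 to 100 without any 1 of the KO libraries that had a replicate, 140 or 141 without WT replicate 1 or 2 at 8 h, and 549 without WT replicate 2 at 0 h.

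The libraries at 2 h and 4 h come from other harvests and gave a second reading. Across the 4 times, in a joint fit, the genes called higher had a median KO minus WT level of -0.54 (log2) at 0 h, -0.34 at 2 h, -0.35 at 4 h and 0.14 at 8 h. For the genes called lower it was 0.33, 0.03, 0.09 and -0.33. In clone 2 the lower genes went from 0.03 at 0 h to -0.91 at 8 h, and in clone 4 from 0.72 to 0.12. So the higher genes started below WT in both clones, while the lower genes started above WT in clone 4 and at the WT level in clone 2. Values at 0 h and 8 h here come from the libraries that chose the genes and only describe them.

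**Figure D4:**
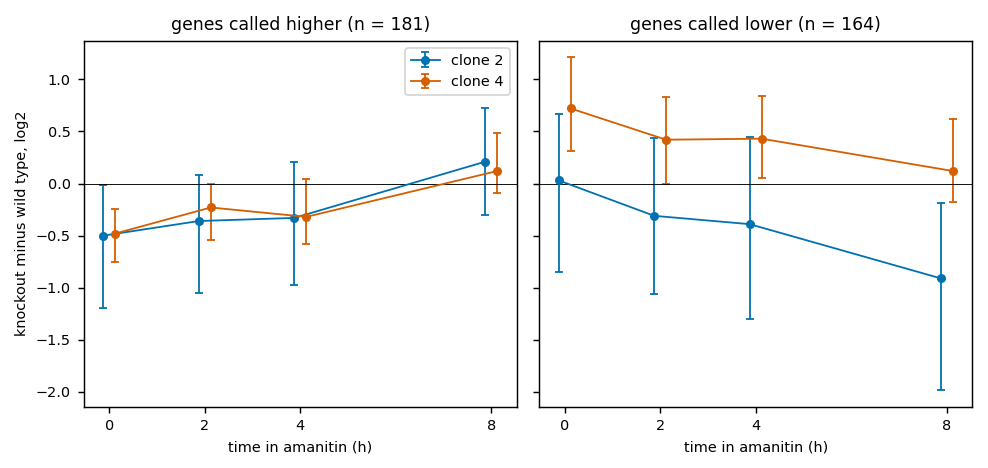
Median KO minus WT level (log2) of the genes called higher (left) and lower (right) at 0, 2, 4 and 8 h of α-amanitin for each clone; bars run from the lower to the upper quartile over genes. Medians of the higher genes lie at -0.50 and -0.48 at 0 h and above 0 at 8 h, and for the lower genes clone 4 stays above clone 2 throughout.

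The step from 2 h to 4 h used only libraries outside the 0 h and 8 h fit. Of the 181 higher genes, 176 could be tested there and 83 were again positive (47.2%), against 47.4% of all genes tested. In that step 9 of them were called positive and 5 negative, where 2.86% of all 14452 genes were called positive, 2.57% negative and 5.43% either. Of the 164 lower genes, 100 were again negative and 39% were positive, against 47.4% positive among all genes tested. In this step 15 of them were called negative and 4 positive, and their median was -0.08, against -0.01 over all genes. Dhrs3 was called again (0.56, edgeR FDR 0.00254), as were, among the lower genes, Emp1 (-0.68, edgeR FDR 3.11e-05), Lurap1l (-0.93, edgeR FDR 0.000973), Ptgs2 (-0.40, edgeR FDR 0.0177) and Pappa (-0.59, edgeR FDR 0.0256). Rec8 (-0.44, edgeR FDR 0.00252) and Bst2 (-0.54, edgeR FDR 0.0347) went the opposite way to their difference over 8 h. The other called RA-response genes gave 0.30 (Rarb), -0.10 (Stra6), -0.05 (Cyp26a1) and -0.03 (Tshz1). Over the 25 RA-response genes the median of this step was -0.03, against -0.01 over all genes. Thbs1 gave -0.03 (edgeR FDR 0.897). For the higher genes as a group, the share positive in this step was close to that of all genes. The 785 calls of this step over all genes fell to between 424 and 522 without clone 2 replicate 1, clone 4 replicate 1 or WT replicate 2 at 2 h, or clone 2 replicate 2, clone 4 replicate 2 or WT replicate 1 at 4 h, and rose to 1462 without WT replicate 4 at 4 h.

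Counts of calls depended on how the clones entered. With the clones pooled as 1 KO group, so that their spread is part of the error, 1 gene was called, Krt19. Of the leave-outs of single libraries, those of any KO library with a replicate and of any WT library at 8 h lowered the higher count to between 52 and 97 and the lower count to between 81 and 112. Leaving out WT replicate 3 or 4 at 0 h raised them to 471 and 426 or to 668 and 645.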

How the data were processed

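The authors deposited raw counts per gene in 1 table per time, per the file headers with gene length in a further column of another kind, and lists of gene symbols from CAPRIN1 immunoprecipitation, also of another kind. The submitters' processing notes list the builds GRCm38 and mm10 and, in no stated order, Cuffdiff, Cufflinks, DESeq2, TopHat, STAR 2.4.0.1 and FastQC 0.11.9. Which program counted, with what strand setting and annotation, is not given in the sources used here. Of 51520 lines per table, 110 repeated lines were dropped, and 50703 of 51410 identifiers were found in a reference list of gene names. The 0 h and 8 h libraries were fitted as 6 groups (WT, clone 2 and clone 4 at each time) in edgeR 4.0.16 under R 4.3.3, with TMM scaling, filterByExpr, robust quasi-likelihood and 9 residual degrees of freedom. The single clone 4 library of 0 h is assumed to vary like the other groups; a second 0 h library of that clone is not analysed here. The tested value is the mean over clones of (KO 8 h minus 0 h) minus (WT 8 h minus 0 h). The 2 h and 4 h libraries were fitted likewise (16 libraries, 10 residual degrees of freedom). SE is the log2 value over the square root of F. The fit was tested on simulated data. Alternatives were other scalings and filters, DESeq2 1.42.0, pooled clones, a joint fit, thinning, subsets of WT and single libraries left out. Named are Caprin1, the 12 largest called differences each way at a mean of 5 CPM or more without predicted genes, up to 4 called members of each list at 1 CPM or more (or 2 members of a list with none), the 4 largest clone differences each way, and genes beside the threshold. Members and lists were chosen with earlier results of these data known. For 1 called cholesterol synthesis gene the values are not reported here.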

Additional observations from a re-analysis of the deposited data

Results flagged for a closer look

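Among 114 groups of 4 WT libraries examined, 7 held a library farther from the others than Dixon's 95% limit allows, and chance flags about 1 in 20. At 8 h these were Hoxc5 in replicate 4 (4.98 CPM, others 5.8 to 5.86), Cdh11 in replicate 2 (135 CPM, others 117 to 119), Lurap1l in replicate 2 (5.35 CPM, others 7.19 to 7.42), Zscan4c in replicate 2 (7.9 CPM, others 6.07 to 6.18), Larp7 in replicate 1 (86.3 CPM, others 80.9 to 81.5) and Zfp346 in replicate 1 (29.3 CPM, others 34.1 to 34.5). At 0 h it was Dhcr7 in replicate 3 (30.3 CPM, others 28.3 to 28.6).

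For 14 named genes the change over 8 h differed between the clones by edgeR's test (clone 4 minus clone 2, log2). Lower values in clone 4 were found for Slc5a5 (-2.26), Dhrs3 (-1.75), the endothelin receptor gene Ednrb (-1.70), Afap1l2 (-1.69), Wnt4 (-1.61), Tec (-1.41) and Rtn4rl1 (-1.37). Higher values were found for the forkhead factor gene Foxd1 (1.91), Sorbs2 (1.87), the growth factor gene Pdgfb (1.82), Tmem158 (1.70), Ptgs2 (1.25), Col3a1 (1.02) and Lin28a (0.59). Of these, Foxd1, Sorbs2, Pdgfb, Tmem158, Ednrb and Afap1l2 were not called in the mean of the clones. Foxd1 rose in clone 4 by 1.82, from 1.93 CPM to 6.63 and 7.09 CPM, while clone 2 held 2.73 to 3.63 CPM and then 2.9 to 3.17 CPM. Clone 4 has 1 library at 0 h, so these differences rest on that library.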

How the results depend on the processing

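Higher and lower calls were 181 and 164 as reported. They were 337 and 649 without a filter on low counts, 289 and 294 in DESeq2 (3355 genes had no adjusted p), 459 and 787 in a joint fit of all 31 libraries, 60 and 68 with libraries thinned to 3.95 mega-counts, 538 and 598 with a term for the WT pairs, 2404 and 2730 with WT replicates 1 and 2, and 420 lower with WT replicates 3 and 4. With clones pooled there was 1 higher and 0 lower call, and 3 and 17 were called in each clone alone. Clone 2 alone gave 937 calls without the filter, 1176 jointly, 349 thinned, 1092 with the pair term, and 4596 and 1298 with WT 1 and 2 or 3 and 4. Clone 4 alone gave 386, 649, 24, 505, 4636 and 787 under these settings and 200 in DESeq2. The clone difference gave 366, 593, 67, 512, 1449 and 1939, and 382 in DESeq2. The cause was not tested beyond the fewer counts, genes or samples. Leaving out each library gave 52 to 668 higher and 81 to 645 lower calls, 193 to 1009 in clone 2, 6 to 595 in clone 4, 38 to 549 for the clone difference and 424 to 1462 between 2 h and 4 h.

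Of the 345 called genes, 326 were called with the same sign without the filter, 327 in DESeq2 and 344 in the joint fit, but 109 after thinning and 1 with clones pooled. Leaving out any 1 KO library with a replicate or any WT library of 8 h kept 127 to 191. Of 55 named called genes, 0 reversed under 26 settings, which largely reuse the same libraries. The call was lost by 54 of them with clones pooled, by 31 after thinning and by 15 to 24 in those leave-outs. Caprin1, not called, turned to 0.12 with clones pooled. Replicate numbers were not taken to pair the samples: deviations of same-numbered WT libraries at 0 h and 8 h correlated at -0.022, 0.087, 0.073 and -0.059, and those of WT and clone 2 at 0 h at 0.192 and -0.277, though clone 2 at 0 h and 8 h gave 0.200 and the clones at 8 h 0.135. A replicate block gave 253 higher and 245 lower calls, and 1004 between 2 h and 4 h.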
